A study of Homo sapiens with 6 samples.

Results

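The genes described here are 38 genes of the DNA damage response and of DNA repair, measured by RNA-seq in HEK293T cells. HEK293T is an established human embryonic kidney line. They were taken by gene symbol from the table of raw counts, in which they are 38 of 63643 rows, and the set was put together with earlier results of these data known. They comprise the apical damage kinases, the checkpoint kinases, the proteins that mark and process DNA breaks, and members of homologous recombination, the Fanconi anaemia pathway, mismatch repair, nucleotide and base excision repair and end joining. Cells of group MGO received 60 µM methylglyoxal (MGO), a reactive dicarbonyl formed as a by-product of glycolysis, for 4 h by the treatment protocol (3 libraries), although the names of these libraries hold a number that does not match that dose and is not explained. Cells of group Control were untreated (3 libraries). Cells of both groups carry the GLO1 deletion written ΔGLO1, so they lack by label the glyoxalase that starts MGO detoxification. The labels do not say whether the cells are 1 clone or whether each replicate was grown separately, so the p-values rest on a spread among libraries that may be technical. The study measured polyadenylated RNA to ask whether MGO changes transcription, with the integrated stress response as its stated interest.

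Damage to DNA is first read by large kinases of the phosphatidylinositol 3-kinase-related (PIKK) family. ATM and DNA-PK act mainly at broken ends and ATR at single-stranded DNA, and they pass the signal to the smaller checkpoint kinases CHEK1 and CHEK2, which hold the cell cycle. Breaks are then joined end to end or copied from a sister chromatid by homologous recombination, while crosslinks, mismatches, bulky adducts and altered bases each have repair routes of their own. MGO can modify guanine in DNA as well as RNA and protein, and adducts of this kind are known substrates of excision repair.

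Total counts per library were 128270160 to 138680220 in MGO and 117427883 to 157639431 in Control libraries. Levels are CPM (counts per 1 M counts) on library sizes scaled by TMM, whose factors were 0.815 to 0.8579 in MGO and 1.186 to 1.214 in Control libraries. Changes are log2 fold changes of MGO over Control from edgeR's quasi-likelihood test, with Benjamini-Hochberg adjustment over all 23109 genes tested and a threshold of 0.05. A gene is said to rise or fall only where it passed that threshold. Coordinates are those of GENCODE release 29 on GRCh38. Counting error is small at this depth for most of these genes, which had 4953 to 899875 counts over the 6 libraries, with the exceptions MDC1 (415 counts) and APEX1 (2 counts). All 5 genes listed as marks of HEK293 cells (VIM, KRT8, KRT18, NEFM and PAX2) had counts, with a sum of 1890 to 2135 CPM in MGO and 788 to 838 CPM in Control libraries. Of these 5, VIM, KRT8 and KRT18 rose (log2 fold changes of 0.89, 1.58 and 1.87), while NEFM and PAX2 fell (−1.39 and −1.94). The 5 fibroblast markers (COL1A1, COL1A2, COL3A1, DCN and LUM) summed to 5.21 to 5.78 CPM in MGO and 14.2 to 15.4 CPM in Control libraries, mostly from COL1A1, which fell (−1.70), while LUM rose (0.63) and the other 3 were too low to test. The 5 blood cell markers (PTPRC, CD3E, LYZ, SPI1 and HBB) summed to 0.436 to 0.8 CPM in MGO and 0.175 to 0.301 CPM in Control libraries, with HBB at 0. Their part in the results below was not tested. In RNA from whole cultures, fewer cells and less RNA per cell cannot be told apart.

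After MGO most of the repair genes were lower, and the largest falls among genes with ample counts were those of the PIKK genes PRKDC, TRRAP, ATM and ATR. Of the 37 genes tested, 22 fell and 10 rose, while 5 missed the threshold. Among all genes tested 40.5% fell and 38.8% rose, so that 79.3% were called in either direction. The median log2 fold change was −0.56 over the 37 repair genes and −0.02 over all genes tested. Falls of at least 2-fold were seen for 15 of the 37 repair genes, where the share over all genes was 25.8%, and rises of at least 2-fold for 3, where that share was 20.9%. All MGO libraries lay below all Control libraries for 23 repair genes and above them for 10, where these shares over all genes were 41.8% and 39.7% and together 81.5%. With scaling by library size alone, 28 repair genes fell and 7 rose, and all genes moved in the same sense, with 55.8% falling, 24.5% rising and a median shifted by −0.53.

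**Figure D1:**
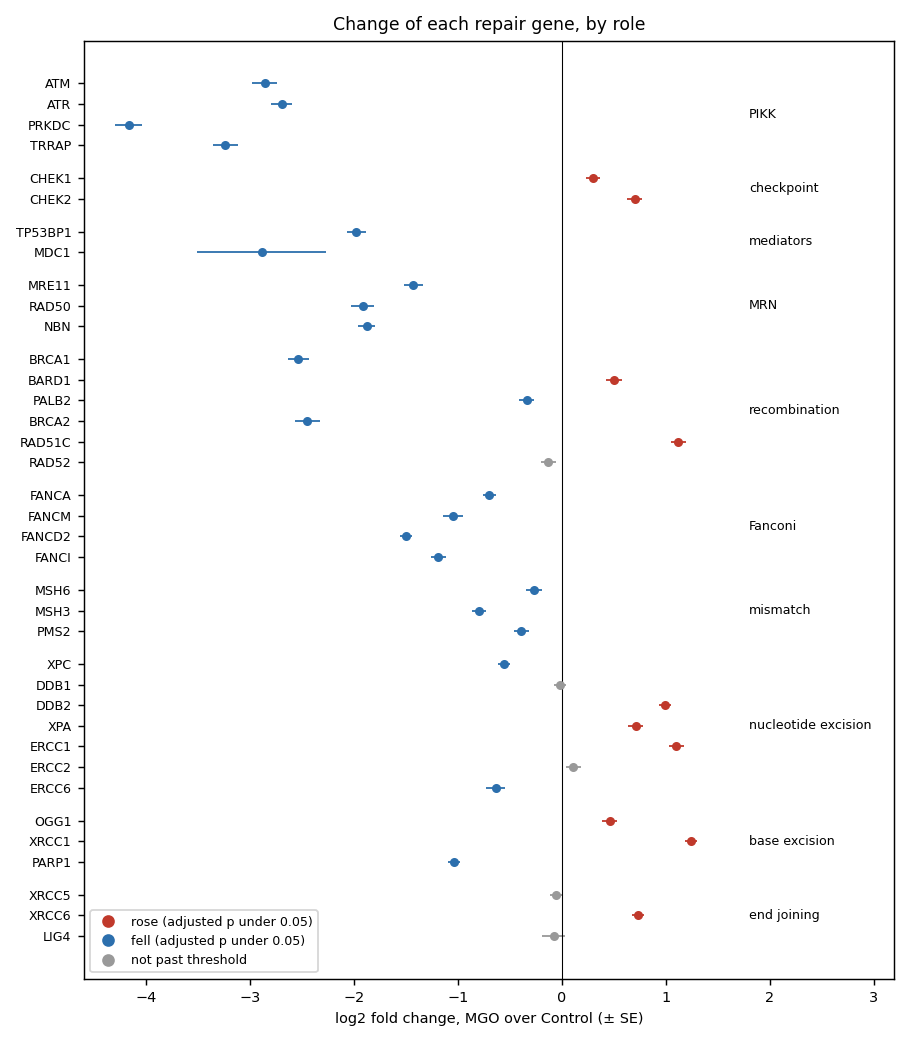
Log2 fold change of MGO over Control with its standard error for the 37 repair genes tested, grouped by role from the PIKK kinases at the top to end joining at the bottom. The 4 PIKK genes lie between −4.17 and −2.70, and red, blue and grey points mark genes that rose, fell or did not pass the threshold; under scaling by library size alone the rises of CHEK1, BARD1 and OGG1 turn to −0.22, −0.02 and −0.06.

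All 4 PIKK genes fell, by 6.52-fold or more, and their groups did not overlap. PRKDC (chromosome 8, 47773108 to 47960183) encodes the catalytic subunit of DNA-PK, the kinase that joins Ku on broken ends. It had 38.5, 27.6 and 34 CPM in MGO libraries, against 506, 644 and 648 CPM in Control libraries. The 3 MGO libraries lay far below every Control library, an 18-fold fall (log2 fold change −4.17, SE 0.13, adjusted p = 8.70e-11), and PRKDC ranked 245 from the lowest fold change among the 23109 genes tested. TRRAP (chromosome 7, 98877933 to 99050831), a PIKK relative without kinase activity that serves as a scaffold of histone acetyltransferase complexes, had 38.5, 29.9 and 35.4 CPM in MGO libraries, against 277, 354 and 348 CPM in Control libraries. Every MGO library was below every Control library (log2 fold change −3.24, SE 0.12, adjusted p = 1.59e-10).

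ATM (chromosome 11, 108222484 to 108369102), the kinase that responds to breaks with the MRN complex, had 10.2, 6.98 and 8.22 CPM in MGO libraries, against 55.8, 65.9 and 62.4 CPM in Control libraries. MGO replicate 1 was the highest of its group and still far below the lowest Control library (log2 fold change −2.86, SE 0.12, adjusted p = 5.27e-10). ATR (chromosome 3, 142449235 to 142578826), which responds to stalled replication forks, had 5.87, 4.82 and 5.46 CPM in MGO libraries, against 31.5, 37 and 36.8 CPM in Control libraries. The groups did not overlap (log2 fold change −2.70, SE 0.10, adjusted p = 1.49e-10), although 16.4% of the exonic bases of ATR are shared with a gene on the other strand. The remaining PIKK kinases showed the same direction: MTOR, the growth-regulating kinase, had 53.8 ± 4.19 CPM in MGO and 227 ± 16.3 CPM in Control libraries (SD, n = 3 each, log2 fold change −2.08, SE 0.08, adjusted p = 2.49e-10), and SMG1, the kinase of nonsense-mediated decay, had 45.8 ± 8.55 CPM in MGO and 254 ± 40.6 CPM in Control libraries (SD, n = 3 each, log2 fold change −2.48, SE 0.14, adjusted p = 5.46e-09). All 6 members of the PIKK family thus fell, with a median of −2.78. Each of the 6 has a longest coding transcript of 8000 nt or more, and 84.3% of coding genes of that length fell. Those genes had a median of −1.59 and quartiles of −2.35 and −0.74. MTOR lay within these quartiles and the other PIKK genes below them.

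Both checkpoint kinases downstream of ATM and ATR rose, CHEK1 only slightly and not with scaling by library size alone. CHEK2 (chromosome 22, 28687743 to 28742422), the main kinase target of ATM, had 49.2, 49.1 and 46.8 CPM in MGO libraries, against 31.6, 28 and 29.9 CPM in Control libraries. It was higher in every MGO library (log2 fold change 0.70, SE 0.07, adjusted p = 7.95e-07). With scaling by library size alone the rise of CHEK2 was only 0.17 (adjusted p = 0.0422). Its longest coding transcript is under 2000 nt, and 73.5% of coding genes of that length rose, with a median of 0.97. CHEK1 (chromosome 11, 125625136 to 125676255), the main kinase target of ATR, had 58.5, 50.8 and 48.5 CPM in MGO libraries, against 42.7, 42.3 and 42.8 CPM in Control libraries. Its rise was small (log2 fold change 0.30, SE 0.07, adjusted p = 0.00233) and turned to a fall of −0.22 (adjusted p = 0.0317) with scaling by library size alone, and it did not pass the threshold once the trend with the median transcript length was removed (0.05, adjusted p = 0.503).

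A ratio of 2 genes within a library does not depend on the scaling between libraries. The log2 ratio of ATM to CHEK2 counts averaged −2.53 ± 0.27 in MGO and 1.04 ± 0.21 in Control libraries (SD, n = 3 each), an 11.9-fold lower ratio after MGO. That of ATR to CHEK1 averaged −3.29 ± 0.13 in MGO and −0.28 ± 0.14 in Control libraries (SD, n = 3 each), an 8.02-fold lower ratio. These ratios are not corrected for transcript length. The longest coding transcripts have 13147 nt for ATM, 1971 nt for CHEK2, 8249 nt for ATR and 4153 nt for CHEK1. With the trend with longest transcript and gene span removed, log2 fold changes lay closer together in both pairs. They were −1.27 for ATM and 0.31 for CHEK2, and −1.43 for ATR and 0.62 for CHEK1. For each of the 13 partner pairs examined the groups did not overlap, as they did not for 81.5% of all single genes tested; the share over other gene pairs was not computed. Each pair gave an exact two-sided permutation p of 0.1, which is the smallest that 3 against 3 libraries can give and remains 0.1 after adjustment over the pairs.

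**Figure D2:**
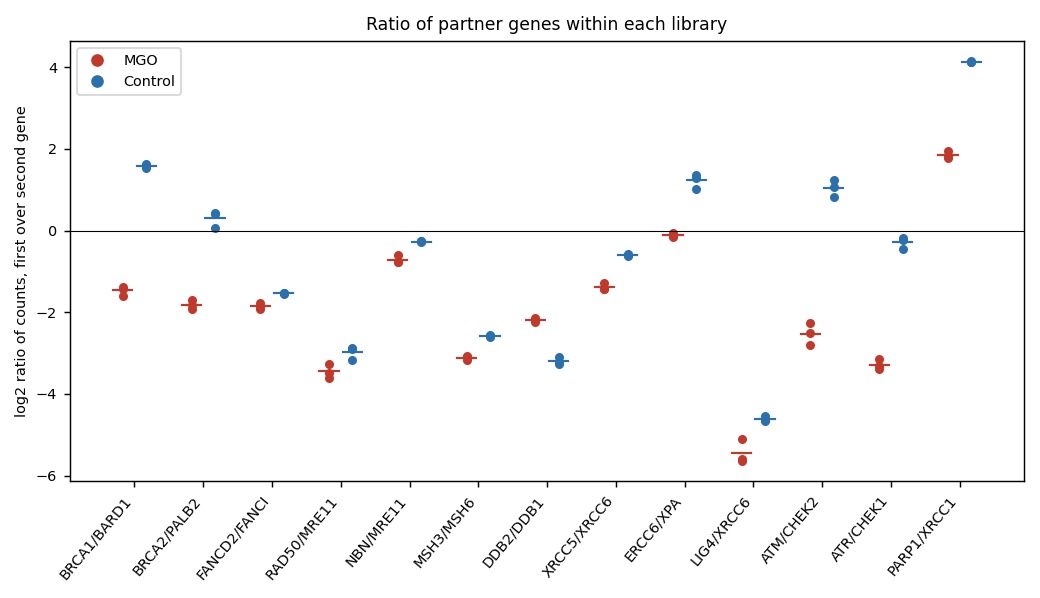
Log2 ratio of the raw counts (each plus 0.5) of partner genes within each library, with MGO in red on the left and Control in blue on the right of each pair, points for libraries and bars for means. The ratios are not corrected for transcript length. The groups do not overlap for any of the 13 pairs; the ATM/CHEK2, BRCA1/BARD1 and ATR/CHEK1 ratios differ most, 11.9-fold, 8.25-fold and 8.02-fold, and DDB2/DDB1 is higher in MGO, by 1.01.

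Both break mediators and all 3 subunits of the MRN complex fell, where 40.5% of all genes tested fell. TP53BP1 (chromosome 15, 43403061 to 43510728), the chromatin reader 53BP1 that favours end joining over resection, had 21.3, 17.4 and 17.6 CPM in MGO libraries, against 69.4, 75.9 and 77.2 CPM in Control libraries. The groups were far apart (log2 fold change −1.98, SE 0.09, adjusted p = 6.21e-10), and 28.7% of its exonic bases are shared with TUBGCP4 on the other strand. MDC1, the scaffold that binds phosphorylated histone H2AX, had only 8, 19 and 9 counts in MGO libraries, against 234, 72 and 73 counts in Control libraries. All MGO libraries were lower (log2 fold change −2.89, SE 0.62, adjusted p = 9.92e-04), but Control replicate 1 stood at 1.64 CPM where the other Control libraries had 0.381 and 0.42 CPM, and without it the log2 fold change was −1.90 (adjusted p = 4.23e-04). Of the 19 coding genes within 250 kb of the MDC1 start, 11 had under 50 counts over the 6 libraries, so its low level is not read as low expression.

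The MRN complex tethers broken ends, trims them and activates ATM. MRE11, its nuclease, had 27.9, 21.8 and 22.3 CPM in MGO libraries, against 63.6, 65.7 and 64.9 CPM in Control libraries (log2 fold change −1.43, SE 0.09, adjusted p = 1.32e-08). NBN, the subunit that recruits ATM, had 16.4, 14.3 and 13.1 CPM in MGO libraries, against 53.6, 53.6 and 54.2 CPM in Control libraries (log2 fold change −1.88, SE 0.08, adjusted p = 6.11e-10). RAD50, the ATPase that spans the ends, had 2.28, 2.27 and 1.99 CPM in MGO libraries, against 7.07, 8.85 and 8.85 CPM in Control libraries (log2 fold change −1.92, SE 0.11, adjusted p = 7.26e-09). In each case all MGO libraries were below all Control libraries. RAD50 shares 79.7% of its exonic bases with another annotated coding gene on the same strand, so its counts are uncertain. The subunits did not fall equally: the log2 ratio to MRE11 differed between MGO and Control libraries by −0.45 for NBN and by −0.47 for RAD50, whatever the scaling.

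Among the 6 homologous recombination genes 3 fell, 2 rose and RAD52 missed the threshold. BRCA1 (chromosome 17, 43044295 to 43170245), the ubiquitin ligase subunit that promotes resection, had 25.5, 19 and 21.6 CPM in MGO libraries, against 124, 130 and 130 CPM in Control libraries. It fell in every MGO library (log2 fold change −2.54, SE 0.10, adjusted p = 2.22e-10). BARD1 (chromosome 2, 214725646 to 214809711), with which BRCA1 forms its ligase, had 68.5, 57.8 and 55.8 CPM in MGO libraries, against 39.8, 44.8 and 43.8 CPM in Control libraries. It was higher in every MGO library (log2 fold change 0.50, SE 0.08, adjusted p = 1.30e-04), a rise that scaling by library size alone reduced to −0.02 (adjusted p = 0.846). Within libraries the log2 ratio of BRCA1 to BARD1 was −1.43, −1.60 and −1.37 in MGO libraries, against 1.64, 1.53 and 1.57 in Control libraries. The ratio was 8.25-fold lower in MGO libraries, and the groups lay far apart.

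BRCA2 (chromosome 13, 32315474 to 32400266), a mediator of strand exchange, had 8.34, 6.07 and 6.78 CPM in MGO libraries, against 32.9, 41.6 and 41.6 CPM in Control libraries. The groups did not overlap (log2 fold change −2.45, SE 0.12, adjusted p = 2.01e-09). PALB2, which bridges BRCA1 and BRCA2, had 27.1, 23 and 24.1 CPM in MGO libraries, against 31.4, 31 and 31.3 CPM in Control libraries, a much smaller fall (log2 fold change −0.34, SE 0.07, adjusted p = 9.90e-04). The ratio of BRCA2 to PALB2 was 4.34-fold lower in MGO libraries. It is not corrected for transcript length, and the longest coding transcripts have 11986 nt for BRCA2 and 4003 nt for PALB2. With the trend with longest transcript and gene span removed, log2 fold changes were −0.97 for BRCA2 and −0.16 for PALB2. RAD51C (chromosome 17, 58692573 to 58735611), which takes part in strand exchange, had 168, 179 and 166 CPM in MGO libraries, against 84, 75 and 77.2 CPM in Control libraries. Its MGO libraries were all above its Control libraries (log2 fold change 1.12, SE 0.07, adjusted p = 8.84e-09). RAD52, which anneals single strands, had 16.4, 16.4 and 15.8 CPM in MGO libraries, against 19.2, 17.1 and 17.1 CPM in Control libraries. Its MGO libraries were all slightly below its Control libraries, yet the change did not pass the threshold (log2 fold change −0.13, SE 0.07, adjusted p = 0.105), and upper quartile scaling gave 0.04.

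**Figure D3:**
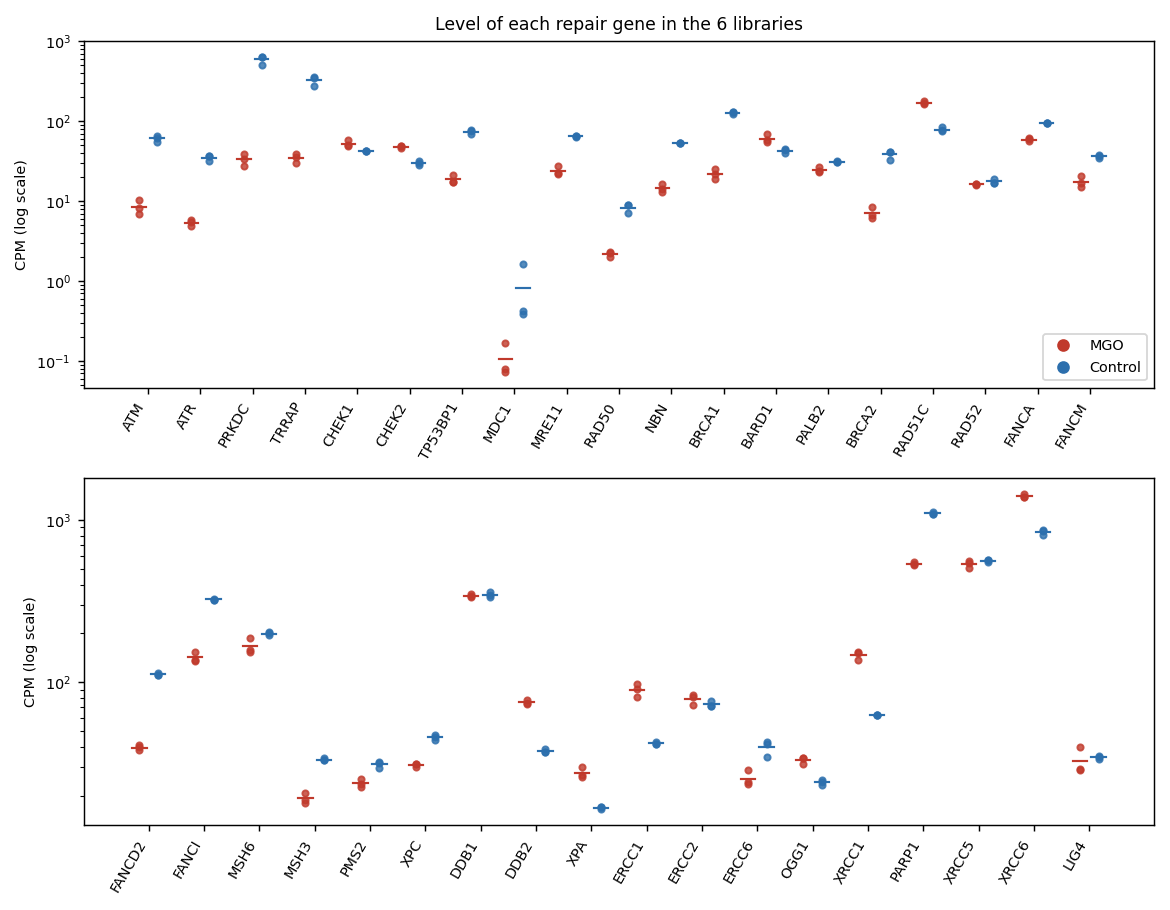
CPM (log scale) of the 37 repair genes tested in the 3 MGO libraries (red, left) and the 3 Control libraries (blue, right), with a point for each library and a bar for the mean. PRKDC stands at 27.6 to 38.5 CPM in MGO and 506 to 648 CPM in Control libraries, and the spread of MDC1 in Control libraries comes from replicate 1.

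All 4 Fanconi anaemia genes fell, and none of their MGO libraries reached the Control range. Over all genes tested 40.5% fell, and for 41.8% all MGO libraries lay below all Control libraries. The 4 genes have longest coding transcripts of 4000 to 8000 nt, and 69.4% of coding genes of that length fell. Of 11 further genes of the pathway 5 rose and 4 fell. The pathway unhooks crosslinks between DNA strands. FANCD2 had 40.9, 38 and 39.7 CPM in MGO libraries, against 111, 111 and 114 CPM in Control libraries (log2 fold change −1.50, SE 0.06, adjusted p = 3.56e-10), and its partner FANCI had 154, 137 and 136 CPM in MGO libraries, against 322, 323 and 328 CPM in Control libraries (log2 fold change −1.19, SE 0.07, adjusted p = 4.56e-09). These proteins form the clamp that is ubiquitinated at crosslinks, and their ratio was 1.24-fold lower in MGO libraries. FANCM, the translocase that helps to recruit the core complex, had 20.8, 15.2 and 16.7 CPM in MGO libraries, against 34.3, 37.9 and 36.6 CPM in Control libraries (log2 fold change −1.05, SE 0.10, adjusted p = 9.07e-07). FANCA, a core complex subunit, had 55.9, 61.5 and 60 CPM in MGO libraries, against 96.4, 96 and 96.1 CPM in Control libraries (log2 fold change −0.70, SE 0.06, adjusted p = 3.16e-07), and 23.6% of its exonic bases are shared with ZNF276 on the other strand.

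All 3 mismatch repair genes fell, by less than 2-fold, where 40.5% of all genes tested fell. MSH3, which detects insertion and deletion loops, had 20.7, 18.9 and 18.1 CPM in MGO libraries, against 33.1, 33 and 34 CPM in Control libraries (log2 fold change −0.80, SE 0.07, adjusted p = 3.29e-07). MSH6, which detects base mismatches, had 186, 159 and 154 CPM in MGO libraries, against 195, 200 and 204 CPM in Control libraries. Its MGO libraries were lower than its Control libraries, with MGO replicate 1 close to them (log2 fold change −0.27, SE 0.08, adjusted p = 0.00625), and upper quartile scaling left −0.09 (adjusted p = 0.257). PMS2, an endonuclease that acts after mismatch detection, had 25.4, 22.5 and 23.5 CPM in MGO libraries, against 29.7, 31.6 and 32.1 CPM in Control libraries (log2 fold change −0.39, SE 0.07, adjusted p = 2.40e-04). PMS2 has near-identical pseudogenes, of which PMS2P3 rose to 40.9 CPM in MGO libraries, against 8.51 CPM in Control libraries (log2 fold change 2.26, adjusted p = 4.89e-11), so the share of reads between them is uncertain.

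Nucleotide excision repair, which cuts out bulky adducts, was divided: 3 of its 7 genes rose (DDB2, XPA and ERCC1), 2 fell (XPC and ERCC6) and 2 missed the threshold (DDB1 and ERCC2). DDB2 (chromosome 11, 47214465 to 47239240), the p53-regulated sensor of damaged chromatin, had 74.3, 77.6 and 73.1 CPM in MGO libraries, against 38.9, 37 and 37.1 CPM in Control libraries. All its MGO libraries were above all its Control libraries (log2 fold change 0.99, SE 0.06, adjusted p = 1.01e-08). Its partner DDB1, an adaptor of CUL4 ubiquitin ligases, had 351, 340 and 334 CPM in MGO libraries, against 334, 345 and 358 CPM in Control libraries; these ranges overlap and no change passed the threshold (log2 fold change −0.02, SE 0.06, adjusted p = 0.788), while upper quartile scaling gave 0.16 (adjusted p = 0.0301) and library size alone −0.54. The ratio of DDB2 to DDB1 was 2.02-fold higher in MGO libraries. XPA, the verification and scaffold factor, had 30.1, 26.6 and 26.1 CPM in MGO libraries, against 17.1, 16.5 and 16.9 CPM in Control libraries (log2 fold change 0.71, SE 0.07, adjusted p = 1.42e-06). ERCC1 (chromosome 19, 45407333 to 45478828), which with ERCC4 forms the nuclease that cuts 5′ of the lesion, had 80.5, 97.6 and 91 CPM in MGO libraries, against 41.6, 42.5 and 41.8 CPM in Control libraries (log2 fold change 1.10, SE 0.07, adjusted p = 2.93e-08), and 28.6% of its exonic bases are shared with CD3EAP on the other strand. XPC, MSH6 and XRCC1 likewise share 15.5% to 23.8% of their exonic bases with genes on the other strand, and the sources used here do not give whether the counting used strand. For XPA and ERCC1 every MGO library was above every Control library.

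XPC, the sensor of helix distortion in the genome at large, had 31.5, 31.2 and 30.2 CPM in MGO libraries, against 44.1, 45.9 and 47.4 CPM in Control libraries, and fell (log2 fold change −0.56, SE 0.06, adjusted p = 2.81e-06). ERCC6, the CSB protein that acts where RNA polymerase stalls on a lesion, had 28.6, 24.2 and 23.6 CPM in MGO libraries, against 34.8, 42.6 and 41.6 CPM in Control libraries, and fell (log2 fold change −0.64, SE 0.09, adjusted p = 4.47e-05). ERCC2, the XPD helicase of TFIIH, had 72.4, 83.6 and 81.2 CPM in MGO libraries, against 76.9, 71.5 and 71.4 CPM in Control libraries. MGO replicate 1 lay within the Control range and the change did not pass the threshold (log2 fold change 0.11, SE 0.07, adjusted p = 0.166), but it did without that library (0.17, adjusted p = 0.00786). ERCC2 stood at −0.42 (adjusted p = 1.37e-04) with scaling by library size alone and at 0.28 (adjusted p = 0.00352) with upper quartile scaling.

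In base excision and single-strand break repair, 2 of 3 genes tested rose and 1 fell. XRCC1 (chromosome 19, 43543040 to 43580473), the scaffold of single-strand break repair, had 137, 154 and 152 CPM in MGO libraries, against 62.6, 62.8 and 62.8 CPM in Control libraries. It was more than 2-fold higher after MGO (log2 fold change 1.24, SE 0.06, adjusted p = 2.86e-09). PARP1 (chromosome 1, 226360691 to 226408079), the poly(ADP-ribose) polymerase that recruits XRCC1 to breaks, had 533, 549 and 527 CPM in MGO libraries, against 1091, 1094 and 1120 CPM in Control libraries. It was lower in every MGO library (log2 fold change −1.04, SE 0.06, adjusted p = 5.65e-09), and the ratio of PARP1 to XRCC1 was 4.83-fold lower in MGO than in Control libraries. OGG1, the glycosylase that removes 8-oxoguanine, had 31.5, 34.3 and 33.9 CPM in MGO libraries, against 25, 23.2 and 24.1 CPM in Control libraries. Its rise (log2 fold change 0.46, SE 0.07, adjusted p = 3.35e-05) was −0.06 (adjusted p = 0.370) with scaling by library size alone, and 25% of its exonic bases are shared with CAMK1 on the other strand. APEX1, the endonuclease that cuts abasic sites, had 1, 0 and 0 counts in MGO libraries, against 0, 1 and 0 counts in Control libraries, and was not tested. Of the 19 coding genes within 250 kb of its start, 17 had under 50 counts over the 6 libraries, among them PARP2 and OSGEP at 0, so no absence of expression is read from this.

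Of the 3 end joining genes 1 rose and 2 did not pass the threshold. XRCC6 and XRCC5 encode the subunits Ku70 and Ku80 of the ring that captures broken ends. XRCC6 had 1378, 1454 and 1379 CPM in MGO libraries, against 874, 812 and 850 CPM in Control libraries, and rose (log2 fold change 0.73, SE 0.06, adjusted p = 2.72e-07). XRCC5 had 562, 541 and 509 CPM in MGO libraries, against 568, 549 and 566 CPM in Control libraries; the groups overlap and the change did not pass the threshold (log2 fold change −0.06, SE 0.06, adjusted p = 0.372). The log2 ratio of XRCC5 to XRCC6 was nonetheless lower in MGO libraries, at −1.39 ± 0.08, against −0.59 ± 0.03 in Control libraries (SD, n = 3 each). LIG4, the ligase of this route, had 40.1, 29.2 and 28.6 CPM in MGO libraries, against 34.8, 35 and 33.6 CPM in Control libraries (log2 fold change −0.08, SE 0.11, adjusted p = 0.518); without MGO replicate 1, the highest of the 6 libraries, it fell (−0.25, adjusted p = 7.02e-04). With scaling by library size alone RAD52, XRCC5 and LIG4 fell (log2 fold changes of −0.66, −0.59 and −0.60 in that order). Divided by the length of the longest coding transcript, levels in MGO libraries were 518 CPM per kb for XRCC6, 136 for PARP1, 143 for XRCC5, 75.8 for DDB1, 30 for FANCI and 2.47 for PRKDC. In Control libraries these 6 were the highest of the set, with 312 CPM per kb for XRCC6, 278 for PARP1, 149 for XRCC5, 76.8 for DDB1, 68.4 for FANCI and 44.4 for PRKDC.

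The log2 fold change was lower the longer the transcript. Across the 37 genes tested, the log2 fold change had a Spearman correlation of −0.61 and a Pearson correlation of −0.55 with the median length of a gene's annotated transcripts, and of −0.83 and −0.84 with its longest coding transcript. Median lengths are short for ATM (587 nt) and PARP1 (561.5 nt), whose annotation includes many short forms, so the longest is used below. The Spearman correlation with the longest transcript was −0.59 over the 14701 coding genes tested and −0.72 over 113 other repair genes. The points share libraries and are not independent, so these are descriptions.

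By length, all 8 repair genes with a longest transcript of 8000 nt or more fell (ATM, ATR, PRKDC, TRRAP, TP53BP1, RAD50, BRCA2 and ERCC6; median −2.58). Of the 1250 coding genes of that length tested, 84.3% fell and 7.92% rose, with a median of −1.59 and quartiles of −2.35 and −0.74. PRKDC, TRRAP, ATM, ATR and BRCA2 lay below that lower quartile. All 3 repair genes under 2000 nt rose (CHEK2, DDB2 and XPA), where 73.5% of 3136 coding genes rose. Between 2000 and 4000 nt, 5 of 10 repair genes rose and 3 fell, where 47.5% of 5730 coding genes rose and 30.6% fell. Between 4000 and 8000 nt, 11 of 16 repair genes fell and CHEK1 and BARD1 rose, where 69.4% of 4585 coding genes fell and 17.6% rose. BARD1, with a longest transcript of 5499 nt, went against the direction of most genes of its length.

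**Figure D4:**
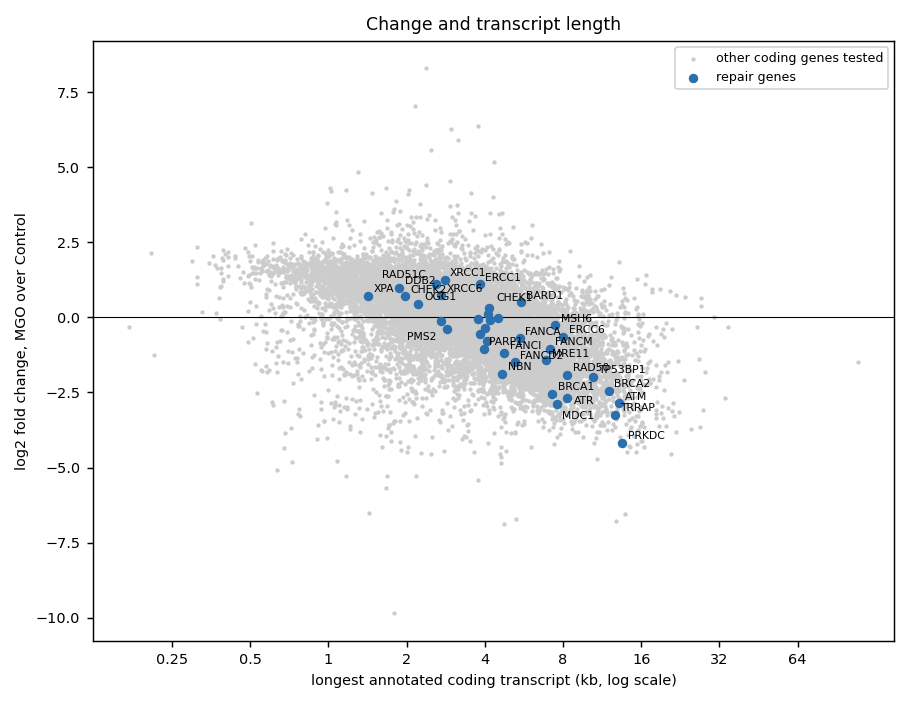
Log2 fold change of MGO over Control against the length of the longest annotated coding transcript (kb, log scale), with the 37 repair genes in blue, 29 of them named, and other coding genes tested in grey. Points fall with length, from XPA, DDB2 and CHEK2 above 0 at the left to PRKDC at −4.17 on the right.

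The trend with transcript length and gene span together was also removed from each library by offsets, which was done after it had been seen. With the longest transcript as the measure, 19 repair genes fell and 13 rose, where 39.7% of all genes tested fell and 37.1% rose. The PIKK genes kept their direction, at −2.56 for PRKDC, −1.66 for TRRAP, −1.43 for ATR and −1.27 for ATM, as did BRCA1 at −1.39, NBN at −1.32 and BARD1 at 1.31. By contrast MSH6 turned to 0.90, ERCC6 to 0.55 and FANCA to 0.08 (adjusted p = 2.94e-08, 1.13e-05 and 0.234 in that order). XPA, at 0.00, OGG1, at 0.02, and FANCM, at −0.03 (adjusted p = 0.767), no longer passed the threshold, so that FANCD2 and FANCI alone of the 4 Fanconi anaemia genes still fell. Whether length itself or something that goes with it moved these genes was not tested.

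Many repair genes start back to back with another gene, so that a pair of divergent transcripts leaves from a common stretch of DNA. Within 1000 bp of the starts of 18 of the 38 genes lay the start of a coding gene transcribed the other way, in 19 pairs, of which 16 had both genes tested. A start here is the outermost edge of the annotated gene, and the start in use in these cells was not determined. Paired genes were not matched for transcript length. In 4 pairs the repair gene fell and the neighbour rose, in 1 the reverse was seen, in 4 both fell, in 1 both rose, and in 6 at least 1 gene did not pass the threshold. Over all single genes tested 40.5% fell and 38.8% rose. The shares over other divergent pairs were not computed, so these counts are not read as particular to shared starts. The 3 stretches printed here lie between the annotated starts of pairs in which the repair gene fell and the neighbour did not. They are shown because by annotation both genes leave from them. They come from RefSeq promoter windows on GRCh38.p14 and read 5′ to 3′ on the strand of the repair gene. Capitals mark matches on either strand to the motifs named after them.
PALB2/DCTN5 (chr16:23641311-23641391, minus strand): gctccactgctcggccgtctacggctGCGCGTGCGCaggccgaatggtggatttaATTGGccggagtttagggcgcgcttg
BRCA2/ZAR1L (chr13:32315345-32315473, plus strand): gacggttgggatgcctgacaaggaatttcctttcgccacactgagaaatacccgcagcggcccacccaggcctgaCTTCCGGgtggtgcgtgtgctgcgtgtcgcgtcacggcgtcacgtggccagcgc
PMS2/AIMP2 (chr7:6009126-6009244, minus strand): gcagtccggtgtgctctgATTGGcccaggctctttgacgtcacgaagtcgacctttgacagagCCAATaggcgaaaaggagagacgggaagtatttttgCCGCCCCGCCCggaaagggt

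The capitals stand for the CCAAT box (CCAAT), the GC box (GGGCGG), an ETS site (CCGGAAG) and an NRF1 site (GCGC, any base, then TGCGC), each searched on both strands. The PMS2 stretch of 119 bases holds 2 CCAAT boxes, which point in opposite directions, and 2 GC boxes that overlap. The PALB2 stretch of 81 bases holds 1 NRF1 site and 1 CCAAT box, and the BRCA2 stretch of 129 bases holds 1 ETS site. Windows of 250 bases before to 50 after the start were at hand for 33 of the 38 genes, 51 windows in all. The CCAAT box was in 49% of them and in 34.6% of the 35116 windows of all genes, the GC box in 66.7% and 45%, the ETS site in 27.5% and 10.3%, and the NRF1 site in 17.6% and 5.78%. The TATA box (TATAAA) was in 1.96% of the windows of repair genes and in 11.5% of all windows. These are matches of letters and not measured binding.

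At the shared PMS2 start region, PMS2 fell by 0.39 on the log2 scale, while AIMP2, a scaffold of the tRNA synthetase complex, had 84.5 ± 8.04 CPM in MGO and 33 ± 0.498 CPM in Control libraries (SD, n = 3 each, log2 fold change 1.36, SE 0.07, adjusted p = 4.31e-09). At XPC, which fell by 0.56, LSM3, a subunit of the U6 snRNA-binding ring, had 245 ± 12.7 CPM in MGO and 83.5 ± 10 CPM in Control libraries (SD, n = 3 each, log2 fold change 1.55, SE 0.09, adjusted p = 4.27e-09). At MRE11, which fell by 1.43, ANKRD49 had 41.1 ± 1.75 CPM in MGO and 18.2 ± 0.943 CPM in Control libraries (SD, n = 3 each, log2 fold change 1.18, SE 0.07, adjusted p = 6.83e-09). At FANCM, which fell by 1.05, the prolyl isomerase gene FKBP3 had 205 ± 9.34 CPM in MGO and 122 ± 7.8 CPM in Control libraries (SD, n = 3 each, log2 fold change 0.74, SE 0.07, adjusted p = 5.11e-07). In these 4 pairs the neighbours were higher in MGO and the repair genes lower, in the same libraries. The longest coding transcript was shorter for AIMP2 than for PMS2 (1225 and 2855 nt) and for ANKRD49 than for MRE11 (3002 and 6897 nt). It was also shorter for FKBP3 than for FANCM (1684 and 7111 nt), and nearly equal for LSM3 and XPC (3815 and 3832 nt). FANCM no longer passed the threshold with the longest-transcript trend removed (−0.03, adjusted p = 0.767). The part of length in these pairs was not tested.

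ATM and NPAT, a coactivator of histone genes, have overlapping 5′ ends with starts 158 bp apart. NPAT had 41.6, 33.1 and 32.1 CPM in MGO libraries, against 29.1, 33.4 and 34 CPM in Control libraries; the groups overlap and no change passed the threshold (log2 fold change 0.14, SE 0.10, adjusted p = 0.198), where ATM fell 7.25-fold. The starts of PRKDC and MCM4, a subunit of the replicative helicase, are 2 bp apart. MCM4 had 253, 235 and 235 CPM in MGO libraries, against 289, 293 and 301 CPM in Control libraries, a small fall (log2 fold change −0.29, SE 0.06, adjusted p = 8.23e-04; −0.11 with an adjusted p of 0.0974 under upper quartile scaling) beside the 18-fold fall of PRKDC. PALB2 fell by 0.34 where its neighbour DCTN5, a dynactin subunit, did not pass the threshold (log2 fold change 0.07, SE 0.06, adjusted p = 0.33). ZAR1L, the neighbour of BRCA2, was near 0 at 0.128 ± 0.0498 CPM in MGO and 0.132 ± 0.0246 CPM in Control libraries (SD, n = 3 each). BRCA1 and its neighbour NBR1, an autophagy receptor, both fell (log2 fold change −0.60, SE 0.07, adjusted p = 7.88e-06 for NBR1). Their pairing rests on the outermost annotated start of BRCA1, and starts further inside the gene were not examined. TP53BP1 and the cytoskeletal gene MAP1A also both fell (log2 fold change −2.72, SE 0.09, adjusted p = 1.34e-10 for MAP1A).

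CHEK2 and HSCB, an iron-sulphur cluster chaperone, both rose (log2 fold change 1.94, SE 0.08, adjusted p = 4.22e-10 for HSCB). RAD52 did not pass the threshold where its neighbour ERC1, a large scaffold of the cell cortex, had 9.2 ± 0.335 CPM in MGO and 86.1 ± 6.64 CPM in Control libraries (SD, n = 3 each, log2 fold change −3.23, SE 0.08, adjusted p = 1.66e-11). XRCC6 rose where DESI1 did not pass the threshold (log2 fold change 0.07, SE 0.06, adjusted p = 0.309), and ABHD13 rose (log2 fold change 0.31, SE 0.07, adjusted p = 7.89e-04) where LIG4 did not pass it. RAD51C was the pair in which the repair gene rose and the neighbour fell, but the fall of TEX14 was slight (log2 fold change −0.31, SE 0.13, adjusted p = 0.0358) and missed the threshold with DESeq2 (adjusted p = 0.0503). It also missed it without MGO replicate 1 or 2 (adjusted p = 0.0602 and 0.147) and without Control replicate 1 or 2 (adjusted p = 0.109 and 0.0609). The neighbours NPAT, DCTN5, DESI1 and ABHD13 had negative values, −0.38, −0.46, −0.46 and −0.21, with scaling by library size alone.

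**Figure D5:**
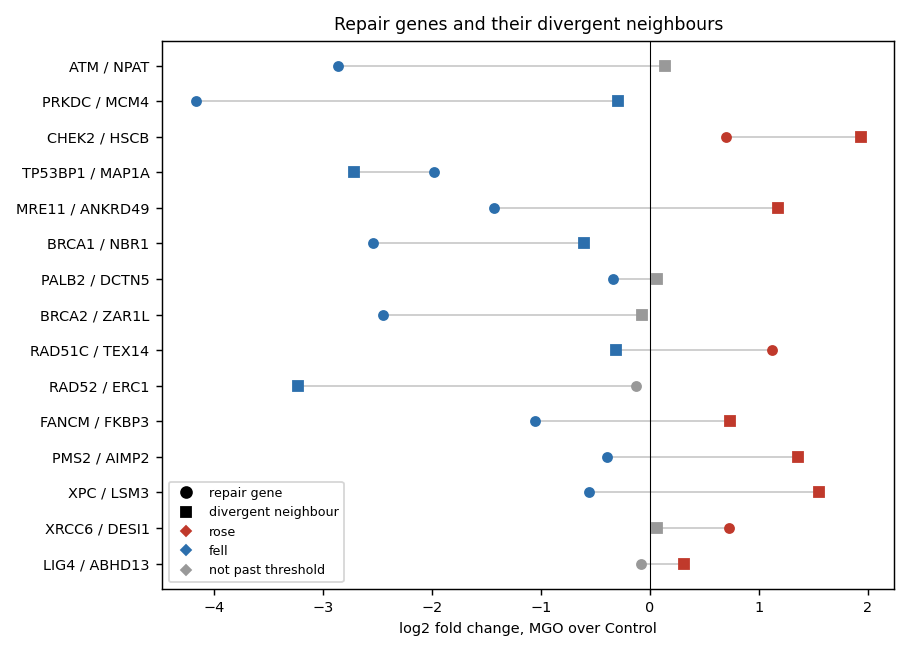
Log2 fold change of MGO over Control for the repair gene (circle) and its divergent neighbour (square) in 15 of the 16 pairs with both genes tested, joined by a grey line and coloured by call. For ATM/NPAT the values are −2.86 and 0.14 and for PMS2/AIMP2 −0.39 and 1.36; NPAT, DCTN5, DESI1 and ABHD13 turn negative under scaling by library size alone.

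The other genes of these pathways moved in both directions in similar numbers. Of 118 further repair genes listed by role, 113 were tested, of which 55 rose and 47 fell, with 11 short of the threshold (median 0.09). Over all genes tested 38.8% rose and 40.5% fell. Rises of at least 2-fold were seen for 23 and falls of at least 2-fold for 22, where the shares over all genes were 20.9% and 25.8%. All MGO libraries lay above the Control libraries for 55 and below them for 50, where these shares were 39.7% and 41.8%. With scaling by library size alone, 35 rose and 64 fell, where 24.5% of all genes rose and 55.8% fell. Base excision and single-strand break repair had 12 of 17 genes raised and 5 lowered, and break signalling 8 of 11 raised and 3 lowered. Homologous recombination had 5 of 17 raised and 12 lowered, and nucleotide excision repair 8 of 19 each way.

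In checkpoint signalling WEE1, the kinase that restrains CDK1, had 389 ± 21.3 CPM in MGO and 73.7 ± 2.68 CPM in Control libraries (SD, n = 3 each, log2 fold change 2.40, SE 0.07, adjusted p = 4.27e-11), and CLSPN, the claspin adaptor by which ATR activates CHEK1, had 39.6 ± 5.27 CPM in MGO and 115 ± 4.43 CPM in Control libraries (SD, n = 3 each, log2 fold change −1.54, SE 0.09, adjusted p = 5.81e-09). Downstream of 53BP1, the shieldin subunit SHLD3 had 51.8 ± 2.26 CPM in MGO and 4.53 ± 0.178 CPM in Control libraries (SD, n = 3 each, log2 fold change 3.52, SE 0.07, adjusted p = 9.28e-12), while SHLD2, another shieldin subunit, had 15 ± 1.48 CPM in MGO and 54.5 ± 1.01 CPM in Control libraries (SD, n = 3 each, log2 fold change −1.87, SE 0.08, adjusted p = 4.78e-10). The remaining shieldin subunits SHLD1 and MAD2L2 rose (log2 fold changes of 1.01 and 1.51), so that SHLD2 was the 1 of the 4 that fell. SLX4, the scaffold of structure-specific nucleases in recombination, had 3.41 ± 0.477 CPM in MGO and 42.5 ± 2.7 CPM in Control libraries (SD, n = 3 each, log2 fold change −3.64, SE 0.10, adjusted p = 4.27e-11).

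The Fanconi anaemia pathway had 5 of 11 further genes raised and 4 lowered, and mismatch repair 2 of 5 raised and 3 lowered. UBE2T, the ubiquitin-conjugating enzyme of FANCD2, had 165 ± 5.18 CPM in MGO and 51.6 ± 3.38 CPM in Control libraries (SD, n = 3 each, log2 fold change 1.68, SE 0.07, adjusted p = 3.50e-10), whereas the nuclease FAN1 had 1.85 ± 0.17 CPM in MGO and 4.71 ± 0.227 CPM in Control libraries (SD, n = 3 each, log2 fold change −1.34, SE 0.10, adjusted p = 1.07e-07). MLH3, a mismatch repair gene best known from meiosis, had 4.64 ± 0.92 CPM in MGO and 28.7 ± 0.432 CPM in Control libraries (SD, n = 3 each, log2 fold change −2.63, SE 0.12, adjusted p = 6.40e-10). In excision repair RPA3, the smallest subunit of the single-strand binding protein RPA, rose (1.61), UVSSA, a factor for stalled polymerase, fell (−2.40), the glycosylase NTHL1 rose (1.32) and PARG, which removes poly(ADP-ribose), fell (−1.21). In end joining PAXX rose (1.52) and NHEJ1, the XLF protein, fell (−2.81). MGMT, which reverses O-alkylguanine, rose (1.61), REV3L, the catalytic subunit of the translesion polymerase zeta, fell (−2.03), and TTI2, a chaperone cofactor for PIKK proteins, rose (1.13), all values being log2 fold changes with adjusted p under 0.05.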

How the data were processed

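Polyadenylated RNA of ΔGLO1 HEK293T cells was measured in 3 libraries given 60 µM MGO for 4 h and 3 untreated Control libraries. The authors deposited raw counts for each gene. The genome build hg38, the aligner STAR 2.7.0a and the counter featureCounts 2.0.6 are named in the submitters' processing notes, beside Trim Galore 0.6.10. Per the labels' protocols, the library kit keeps strand. The annotation, the strand setting of the counting and the handling of reads with several matches were not given in the sources used here, so genes with close copies or overlapping neighbours are uncertain.

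The counts of all rows went through edgeR 4.0.16 (R 4.3.3), with its filterByExpr for low counts, TMM scaling, quasi-likelihood tests (MGO over Control) and Benjamini-Hochberg adjustment over all 23109 genes tested. The standard error (SE) of a log2 fold change is its size over the root of the F statistic. The steps were tested on simulated data. Of 63643 rows, 56752 matched GENCODE release 29, the source of lengths and coordinates (GRCh38, which is hg38). Partner ratios are log2 ratios of counts plus 0.5 within a library, with exact permutation tests. Promoter sequences come from RefSeq, GRCh38.p14. Alternatives were other scalings, low-count filters, DESeq2 1.42.0, voom from limma 3.58.1, a replicate block, removal of the trend with transcript length and gene span, and leaving out each library. The trend removal with the longest transcript was added after the data were seen.

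Replicates of a group were set against each other over all genes: chi-square over its degrees of freedom was 3.77 to 56.42, beyond sampling noise. The highest values, 51.2 and 56.42, were those of the pairs with MGO replicate 1. Each library was counted as 1 replicate, but these values do not show whether the cultures were separate. Without spike-in RNA all changes are relative to the scaling. The 38 genes and the lists of other repair genes were chosen with earlier results of these data known. Named in the text are all 38 genes, MTOR, the divergent neighbours, and for each role the other repair genes with the largest rise and fall past the threshold at a mean of at least 1 CPM; a few genes that this rule takes are not reported here. The pseudogenes and overlapping genes named were chosen for their sequence or position.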

Additional observations from a re-analysis of the deposited data

How the results depend on the processing

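Under RLE size factors, no filter on low counts, DESeq2 and limma-voom, all 37 repair genes tested stayed on the same side of the threshold with the same sign. A filter at 1 CPM in 3 libraries did the same for 36 and removed MDC1. Library size alone shifted the median of all genes by −0.53, raised 35 other repair genes where the main analysis raised 55, and raised 5673 genes in all, against 8964. It turned CHEK1 to −0.22, BARD1 to −0.02, ERCC2 to −0.42, OGG1 to −0.06, NPAT to −0.38, DCTN5 to −0.46, DESI1 to −0.46 and ABHD13 to −0.21. Upper quartile scaling shifted that median by 0.17 and turned RAD52 to 0.04, DDB1 to 0.16, XRCC5 to 0.11, LIG4 to 0.09 and ZAR1L to 0.11. These turns are within the size of that shift of all genes. Removing the trend with gene span and the median transcript left 10 repair genes raised and 19 lowered and turned PALB2 to 0.11, FANCM to 0.06, MSH6 to 0.54, MSH3 to 0.06, DDB1 to 0.62, ERCC2 to −0.25, XRCC5 to 0.56, LIG4 to 0.16, DCTN5 to −0.38 and TEX14 to 0.72. With no change of sign CHEK1 (0.05), XPA (0.09), OGG1 (0.13) and ERCC6 (−0.11) lost their call there. With the longest transcript it turned FANCA to 0.08, MSH6 to 0.90, DDB1 to 0.36, ERCC6 to 0.55, XRCC5 to 0.27 and TEX14 to 0.41, XPA, OGG1 and FANCM lost their call, and the cause was not tested. The Spearman correlation of change with length over the repair genes was −0.61 with the median and −0.83 with the longest transcript.

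Leaving out each library in turn left 22 to 23 repair genes lowered and 10 to 11 raised. It gave −0.05 to 0.00 for DDB1, −0.25 to 0.01 for LIG4 and −0.28 to 0.23 for ZAR1L, none of which passed the threshold in the full data. The partner ratios kept their sign without any library and with 1 added in place of 0.5. Divergent starts within 500 bp, in place of 1000 bp, left 3 pairs with a lowered repair gene and a raised neighbour. Same-numbered replicates did not deviate together (correlations of 0.031, 0.015 and 0.005). A small shared effect could be missed this way, so the check cannot settle whether the numbers pair the libraries. A replicate block left 22 repair genes lowered and 10 raised. The near-0 counts of MDC1 and APEX1 limit what can be said of them.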

Other observations

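Pseudogenes of the repair genes held counts of their own. PMS2P3 totalled 18087 counts over the 6 libraries, 76% of the PMS2 total, and PMS2P4 totalled 4463, with a log2 fold change of 0.39 (edgeR adjusted p = 5.94e-04). PMS2P5 rose by 0.93 on the log2 scale (adjusted p = 7.18e-05). XRCC6P1 had 9.14 CPM in MGO and 0.507 CPM in Control libraries (log2 fold change 4.18, adjusted p = 3.15e-11), where XRCC6 itself rose by 0.73. BRCA1P1, a partial copy of BRCA1, fell as BRCA1 did, at 0.244 CPM in MGO and 0.786 CPM in Control libraries (log2 fold change −1.69, adjusted p = 1.20e-04). These pseudogenes were named after their values were seen, and reads may be shared between them and the genes.

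Some repair genes that most cells use had almost no counts. APEX1, TOP3A, CETN2, GTF2H1, GTF2H4 and PARP2 were not tested, with 0 to 2 counts in each library. Around ERCC6, 5 of 6 coding genes within 250 kb of its start had under 50 counts over the 6 libraries, while ERCC6 itself had 28829.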
